A study of Homo sapiens with 11 samples.

Results

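The clustered protocadherin genes are 59 neighbouring genes on the long arm of human chromosome 5, and CTCF binding across them was followed in HCT116 p53-/- cells with and without ORC2. Members were all RefSeq protocadherin genes of chromosome 5 whose symbols begin PCDHA, PCDHB or PCDHG followed by a digit, A, B or C. They numbered 59 of the 59792 genes in the table, 53 protein-coding genes and 6 pseudogenes. The alpha cluster has 16 of them, the beta cluster 19 and the gamma cluster 24. A further 2 entries match these letters but are not protocadherin genes, the constant region entry PCDHACT and the antisense RNA PCDHB1-AS1, and were set aside. The CTCF summits taken were those between 140.5 and 141.7 Mb of that chromosome (hg38), a window of 1200 kb that holds the 3 clusters and their flanks. It held 21 of 31112 summits in the ORC2 deletion list, 15 of 20810 in the ORC2 rescue list and 14 of 19044 in the WT list.

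HCT116 is a human colorectal cancer line, and every group here lacks p53. The ORC2 deletion cells are 1 clone made with CRISPR/Cas9 in that line, per the labels. The ORC2 rescue cells were selected as clones after ORC2 had been returned on a plasmid, and the WT cells are the parent line. CTCF was mapped by CUT&RUN, in which a nuclease brought in by an antibody cuts out the DNA around the bound protein. IgG libraries were made as well. Each group had 2 libraries, other than rescue IgG with 1, and the deposited CTCF lists name no replicate. Each list was therefore taken as the pool of its group, so no difference below has a replicate check, and the depth behind the lists is unknown. The lists give peak summits and no expression, so the cell type could not be checked against marker genes.

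Clustered protocadherins are cell adhesion proteins best known from neurons, where each cell chooses a few of the variable promoters and so carries its own combination at the surface. In the alpha and gamma clusters each variable exon has its own promoter and is spliced to constant exons that the whole cluster shares, whereas beta genes have no constant exons. CTCF is known to bind a conserved promoter element with a CGCT box and to loop the chosen promoters to distant enhancers, such as HS5-1 of the alpha cluster. Its binding is sensitive to DNA methylation, and methylation of these promoters has been described in tumours, colorectal ones among them.

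The promoters with a CTCF summit carried the letters of the CGCT box, as did most of the promoters without one. The sequences are those of RefSeq (GRCh38.p14), all on the plus strand, 5′ to 3′, and stop before the gene start. Promoter sequence was matched for 47 of the 59 members by symbol. Those without one were PCDHA3, PCDHA13, PCDHA14, PCDHB6, PCDHB11, PCDHB17P, PCDHB18P, PCDHB19P, PCDHGA12, PCDHGC5, PCDHGB8P and PCDHGB9P. Capitals mark GNCGCT, the CGCT box with a G placed 2 bases before it. These 8 promoters had a summit in at least 1 list.
PCDHA10, chr5:140855830-140855879: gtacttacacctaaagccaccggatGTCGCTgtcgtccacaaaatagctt
PCDHAC1, chr5:140926209-140926258: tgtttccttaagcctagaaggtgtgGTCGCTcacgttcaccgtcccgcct
PCDHB9, chr5:141187063-141187112: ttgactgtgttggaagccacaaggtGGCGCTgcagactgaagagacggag
PCDHB13, chr5:141213854-141213903: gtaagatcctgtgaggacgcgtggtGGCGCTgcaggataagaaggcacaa
PCDHGB2, chr5:141359910-141359959: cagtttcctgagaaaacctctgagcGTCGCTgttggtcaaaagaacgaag
PCDHGA6, chr5:141373824-141373873: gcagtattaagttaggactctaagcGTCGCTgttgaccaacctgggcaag
PCDHGA9, chr5:141402703-141402752: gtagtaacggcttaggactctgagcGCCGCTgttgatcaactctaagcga
PCDHGA10, chr5:141412920-141412969: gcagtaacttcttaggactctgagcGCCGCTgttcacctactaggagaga

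The next 4 had no summit in any list and are shown because their boxes are close to those of PCDHA10, PCDHB9, PCDHB13 and PCDHGA10.
PCDHA1, chr5:140786075-140786124: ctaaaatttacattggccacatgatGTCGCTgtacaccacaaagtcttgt
PCDHB10, chr5:141192288-141192337: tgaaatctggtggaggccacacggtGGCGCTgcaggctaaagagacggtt
PCDHB12, chr5:141208632-141208681: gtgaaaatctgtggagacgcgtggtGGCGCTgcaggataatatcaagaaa
PCDHGA8, chr5:141392557-141392606: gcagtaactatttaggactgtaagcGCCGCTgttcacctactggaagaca

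Over the 26 bases from 10 before the 6-letter box to 10 after it, PCDHB13 matched PCDHB12 at 25 bases, PCDHGA10 matched PCDHGA8 at 24, PCDHB9 matched PCDHB10 at 23 and PCDHA10 matched PCDHA1 and PCDHA2 at 21. PCDHAC1, one of the C-type genes, stood apart, with 13 bases shared with its closest match, PCDHA4. The median identity between 2 members was 73.1% within the alpha cluster, 80.8% within beta and 73.1% within gamma. It was 53.8% between members of different clusters, for each of the 3 pairs of clusters. The windows were aligned on the box, so its 5 fixed letters are the same in all of them by construction. For the 6 members with several boxes, the copy most like those of its own cluster was taken, which favours identity within a cluster.

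CGCT stood on either strand in the 300-base promoter window, from 250 bases before the start on, of 46 of 47 members (97.9%, 95% Wilson interval 88.9 to 99.6). PCDHA9 was the exception. Of all 34961 RefSeq promoter windows, 70.1% had it. GNCGCT, a form chosen after these sequences were seen, stood in 45 of the 47 (95.7%, 85.8 to 98.8) and in 44.1% of all windows. On the gene's own strand, 44 of 47 members had GNCGCT, against 28.5% of all windows. It stood on that strand in each of the 8 promoters with a summit and in 36 of the 39 without, so its letters were present whether or not a summit was. Wholly before the gene start it was found in 43 members, 6 of which had more than 1 copy there, and PCDHGC3 had 5. The 52 copies lay between 199 and 13 bases before the start. Where a member had several, the copy most like the boxes of its own cluster was taken for the identities above, and the 43 copies so taken lay between 97 and 13 bases before the start. PCDHA9, PCDHAC2, PCDHB8 and PCDHGB7 had none before the start.

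The core of the CTCF motif, taken as 12 letters of which 5 may be any base and searched on both strands, was found in 1 of the 47 members (2.13%, 0.377 to 11.1), against 10.6% of all windows. That member was PCDHB9, whose core shares 3 bases of its end with the box. The member promoters were also low in GC, with a median of 39.7% over the 47 windows (range 32.3 to 66.0), against 58.7% over all windows. The median was 40.2% in the 8 windows with a summit and 39.7% in the 39 without. A match of letters is a description and not a bound site.

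Across the locus, the 50 summits of the 3 CTCF lists formed 23 sites when summits within 500 bp of the next were joined, and no site held more than 1 summit of a list. All 3 lists shared 11 sites. A further 2 were in ORC2 deletion and WT, 2 in deletion and rescue, and 1 in rescue and WT. The deletion list alone held 6 and the rescue list alone 1, and no site was in the WT list alone. The IgG lists held few summits in all, 34 in ORC2 deletion, 33 in rescue and 17 in WT. None lay in the window, which with so few does not test the background there.

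**Figure D1:**
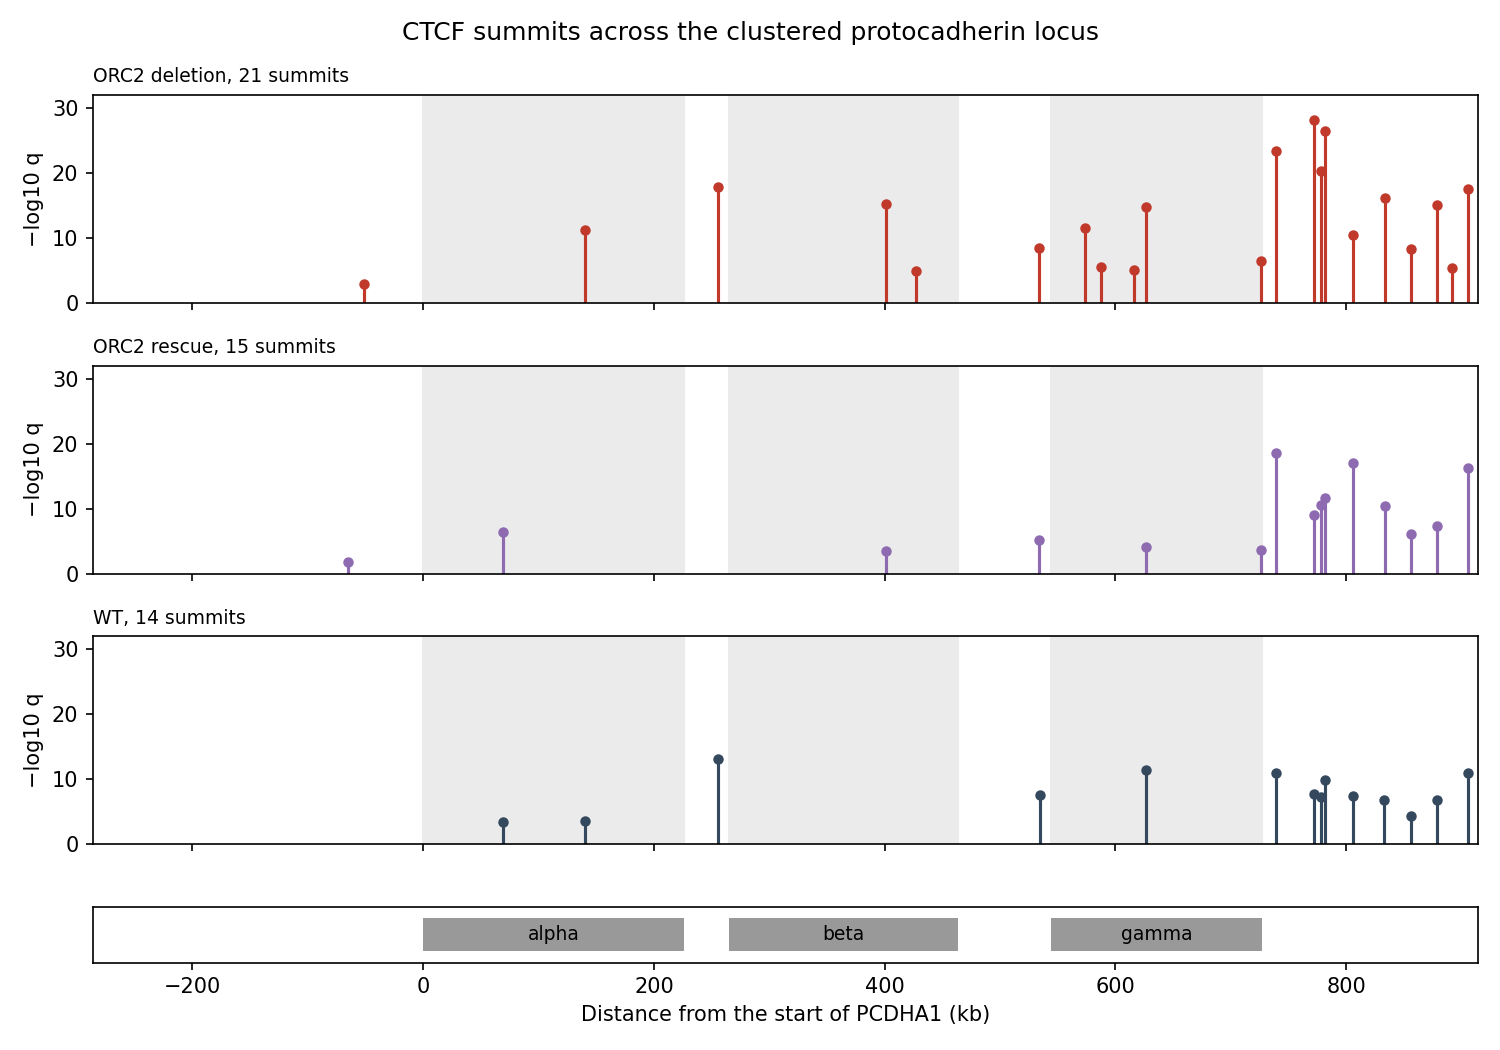
CTCF summits along the locus by distance from the start of PCDHA1 in kb, with the −log10 q of each summit as its height, for ORC2 deletion, ORC2 rescue and WT, and with the 3 gene clusters shaded. The tallest stems of deletion and rescue lie downstream of gamma; heights are not scaled between lists.

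The shared sites lay mostly downstream of the gamma cluster. Of the 14 sites outside the 3 clusters, 10 were in all 3 lists, and 9 of these 10 lay downstream of gamma. The other was the 1 site between beta and gamma. The 2 sites upstream of alpha and the 1 between alpha and beta were not in all 3 lists. Of the 9 sites inside the clusters 1 was, at PCDHGA10. No share of sites in all 3 lists is given here for the full lists, so whether these counts set the clusters apart was not tested. Of the 8 deletion summits inside the clusters, 4 had neither a rescue nor a WT summit within 500 bp (50.0%, 95% Wilson interval 21.5 to 78.5), and the share over the full deletion list was 30.6%, within that interval. With each list shortened to about the length of the WT list by keeping its highest values, 1 of 4 such summits had neither (interval 4.56 to 69.9%), against 12.6% of the full list. The deposited value of a summit is the authors' −log10 of q from peak calling, which can rank summits within a list and is not scaled between lists. Within each list, the median value was lower for summits inside the clusters than for those outside. The median −log10 q was 8.78 against 16.2 in ORC2 deletion (8 and 13 summits), 3.88 against 10.4 in rescue (4 and 11) and 3.67 against 7.59 in WT (3 and 11). Single values overlapped. The WT summit at PCDHGA10 (11.4) ranked 2 in the window, and the lowest deletion (2.87) and rescue (1.81) values lay outside the clusters. The medians of the full lists were 8.06, 6.58 and 6.18.

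**Figure D2:**
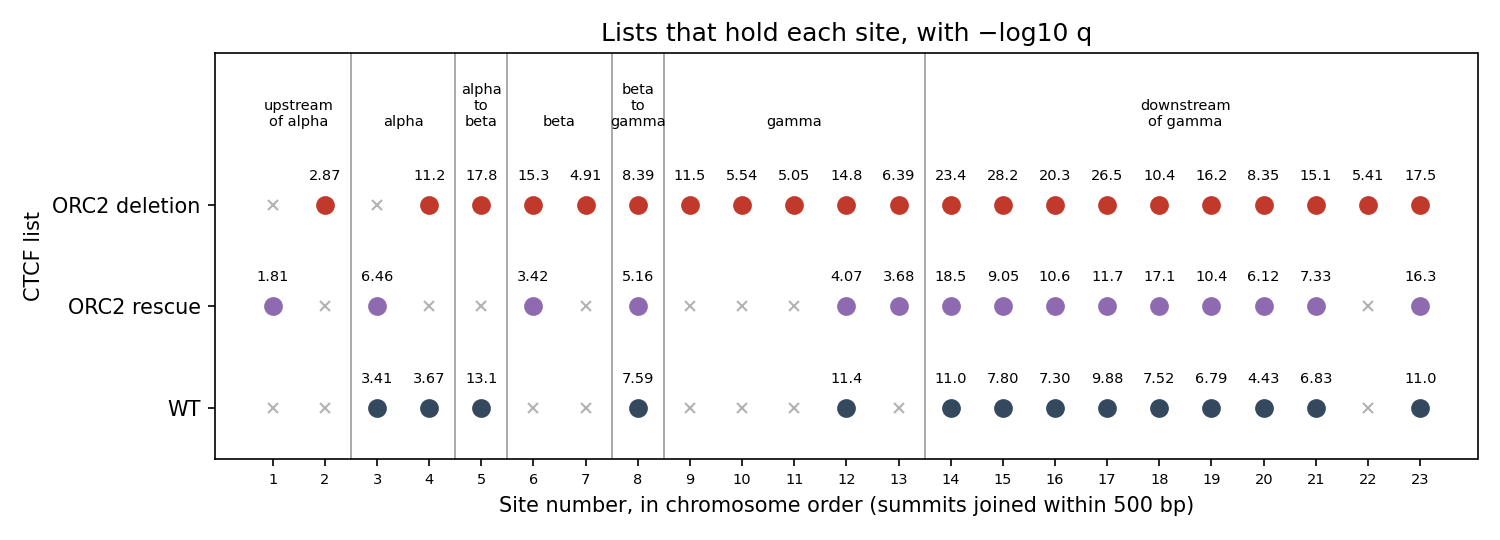
The 23 sites in chromosome order, with a filled point and the −log10 q where a list (rows: ORC2 deletion, ORC2 rescue, WT) has a summit and a grey cross where it has none. Downstream of gamma, 9 of 10 sites are filled in all 3 rows, and inside alpha, beta and gamma 1 of 9 is. No such share is given for the full lists.

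The number of summits in the window was 1.5 times the WT number in ORC2 deletion and 1.07 times in rescue. Over the full lists these ratios were 1.63 and 1.09, and over the rest of chromosome 5 they were 1.71 and 1.13. The order of these ratios changed with the limits and the minimum value. From the start of PCDHA1 to the end of gamma, 10 deletion, 5 rescue and 5 WT summits gave a deletion ratio of 2.00 and a rescue ratio of 1.00. With lists of equal length the deletion ratio in the window was 1.07. With a −log10 q of at least 10, 13 deletion, 6 rescue and 4 WT summits remained, and the deletion ratio was 3.25 in the window, against 2.76 over the full lists at the same minimum.

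Of the 21 deletion summits, 8 had no WT summit within 500 bp (38.1%, 95% Wilson interval 20.8 to 59.1), and the share over the full deletion list was 45.2%. With lists of equal length the share was 13.3% in the window and 25.4% over the full list. Of the 15 rescue summits, 3 had no WT summit (20.0%, 7.05 to 45.2), against 30.2% of the full rescue list. Of the 14 WT summits, 1 had no deletion summit (7.14%, 1.27 to 31.5), against 10.5% of the full list, and 2 had no rescue summit (14.3%, 4.01 to 39.9), against 23.8%. Each of these background shares lies within the interval of the locus, so none of them sets the locus apart. Intervals cover counting error only. Among the 8 deletion summits without a WT summit, 2 had a rescue summit within 500 bp, at PCDHB9 and at the end of the gamma cluster, where 32.3% of such summits did over the full list. Deletion and rescue were both set against the same WT list, so these 2 counts share it.

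Upstream of the alpha cluster, 286 kb of the window had almost no CTCF summits. ORC2 deletion had 1 at 140734755 (−log10 q 2.87) and rescue 1 at 140720565 (1.81), 14190 bp apart, and WT had none. Both lay in the long non-coding RNA gene LOC105378198 and were the lowest values of their lists in the window. The summits next to the window on that side were at 140401680 in deletion, 140401051 in rescue and 140401277 in WT. On the other side they were at 141702123 in deletion, 141702192 in rescue and 141814236 in WT.

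The alpha cluster (140786140 to 141012347) had summits at 2 of its 16 genes, PCDHA10 and PCDHAC1. PCDHA10, a variable alpha gene, had no summit in the ORC2 deletion list, whose nearest one was 70899 bp from the WT summit. It had one in rescue at 140855763 (−log10 q 6.46) and one in WT at 140855667 (3.41), 134 and 230 bp before the gene start. It was the one site of the window found in rescue and WT and not in deletion. The authors' deposited table of down regions names it at chr5:140855611-140855907, 1 of the 364 regions of that list.

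PCDHAC1 showed another pattern. Its summit stood at the same base in ORC2 deletion and WT, 140926566, 267 bp after the gene start, with a −log10 q of 11.2 in the deletion list and 3.67 in the WT list. The rescue list had none within 70803 bp. PCDHAC1 is a C-type isoform, and C-type genes are known in the mouse to be chosen more uniformly across neurons than the other variable exons. The other C-type alpha gene, PCDHAC2, and the 13 remaining alpha genes had no summit within 2 kb of their start in any list.

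Between alpha and beta, 1 site stood in a gap of 39.0 kb without member genes, at 141041480 in ORC2 deletion (−log10 q 17.8) and 141041450 in WT (13.1). The WT value was the highest of the WT list in the window, above 87.1% of that list, and the deletion value was above 85.1% of its own. No rescue summit lay within 145470 bp. With none at PCDHAC1 either, the rescue list had no summit for 331 kb, from PCDHA10 to PCDHB9. Between 2 summits of the window, the longest gap was 192 kb in the deletion list and 279 kb in WT. These gaps leave out the stretch before the first summit. From the last summit below the window to the first one inside it there were 333 kb in deletion, 320 kb in rescue and 454 kb in WT.

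The beta cluster (141051374 to 141249365) had no WT summit at any of its 19 genes, which allows up to 16.8% of gene starts by the Wilson interval. PCDHB9 had summits at 141186932 in ORC2 deletion (−log10 q 15.3) and at 141186950 in rescue (3.42), 229 and 211 bp before its start. The nearest WT summit was 133442 bp from the deletion summit. PCDHB13 had a deletion summit at 141213661 (4.91), 258 bp before its start, and none in rescue or WT. The other 17 beta genes had none in any list.

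The gamma cluster (141330514 to 141512975) held 5 deletion, 2 rescue and 1 WT summits. PCDHGA10 was the one member with a summit in all 3 lists. The summit was at 141413002 in ORC2 deletion (−log10 q 14.8), at 141412845 in rescue (4.07) and at 141412744 in WT (11.4). The deletion summit was 15 bp after the gene start, and those of rescue and WT were 142 and 243 bp before it. They span 258 bp, the widest spread of any site of the window, so the deletion and WT summits of PCDHGA10 match within 500 bp and not within 200 bp.

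PCDHGB2, PCDHGA6 and PCDHGA9 had a summit in ORC2 deletion and in neither other list. For PCDHGB2 it was at 141359745 with a −log10 q of 11.5, 249 bp before the start. For PCDHGA6 it was at 141373761 (5.54), 130 bp before the start, and for PCDHGA9 at 141402569 (5.05), 209 bp before it. PCDHGB2 lay above 67.4% of the deletion list, whereas PCDHGA6 and PCDHGA9 lay above 31.7% and 27.6%. With the deletion list shortened to about the length of the WT list, the summits of PCDHGA6 and PCDHGA9, like that of PCDHB13, were no longer in it, and PCDHGB2 was. The fifth gamma site was near the shared end of the cluster and at no variable promoter, at 141512502 in deletion (6.39) and 141512557 in rescue (3.68), inside the spans of all 22 protein-coding gamma genes. The other 20 gamma genes, the C-type genes PCDHGC3, PCDHGC4 and PCDHGC5 among them, had no summit within 2 kb of their start in any list.

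**Figure D3:**
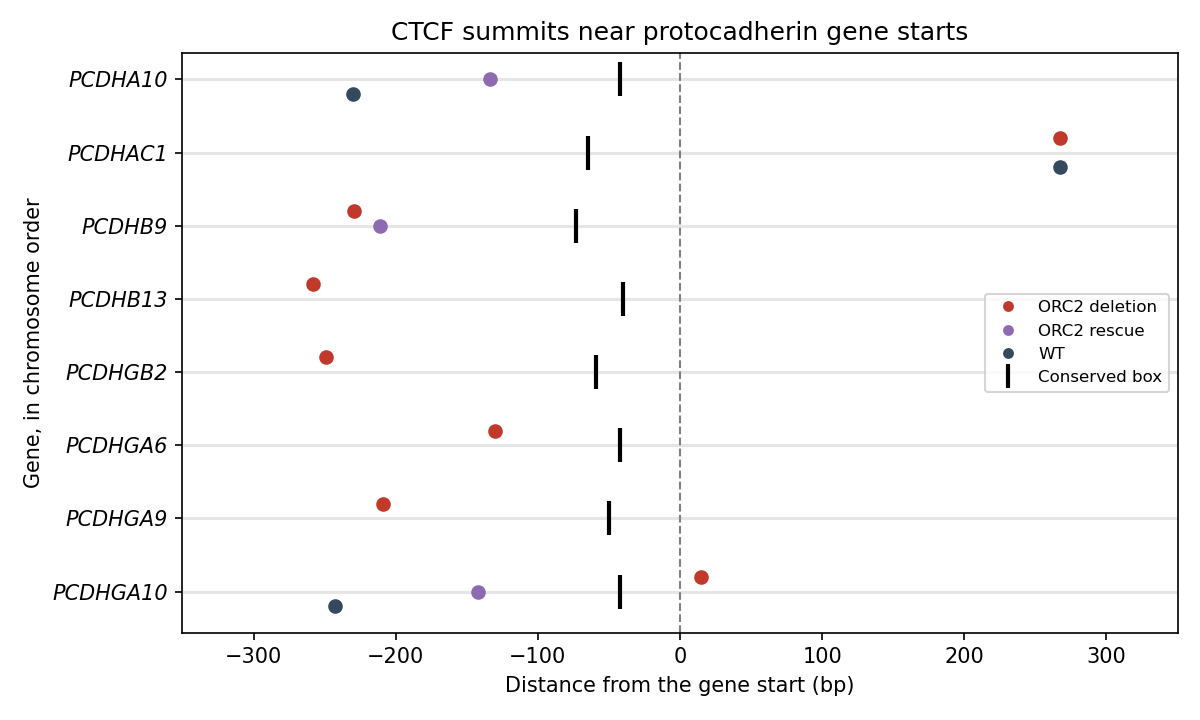
Distance in bp of each CTCF summit from the start of the 8 protocadherin genes that have one within 2 kb, for ORC2 deletion, ORC2 rescue and WT, with a black bar at the GNCGCT box of each promoter. Of 13 summits, 10 lie before the box; those of PCDHAC1 and the deletion summit of PCDHGA10 lie after it.

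In all, 8 of the 59 members had a summit within 2 kb of their start in some list, and 51 had none in any. By list, there were 7 of 59 in ORC2 deletion (11.9%, 95% Wilson interval 5.87 to 22.5), 3 of 59 in rescue (5.08%, 1.74 to 13.9) and 3 of 59 in WT (5.08%, 1.74 to 13.9). With lists of equal length the counts were 4 in deletion, 3 in rescue and 3 in WT. The background was taken over protein-coding genes with an annotated strand, of which 47 were members. Of these 47, 7 had a summit in deletion (14.9%, 7.41 to 27.7), 3 in rescue (6.38%, 2.19 to 17.2) and 3 in WT (6.38%, 2.19 to 17.2). Among all 15813 such genes, the shares were 21.5% in deletion, 12.9% in rescue and 14.0% in WT, each within the interval of the members. With lists of equal length, the shares of the 47 were 8.51% in deletion, 6.38% in rescue and 6.38% in WT. Those of the 15813 were then 11.4%, 11.7% and 14.0%, again each within the interval of the members. Neighbouring members are alike in sequence and are not independent.

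**Figure D4:**
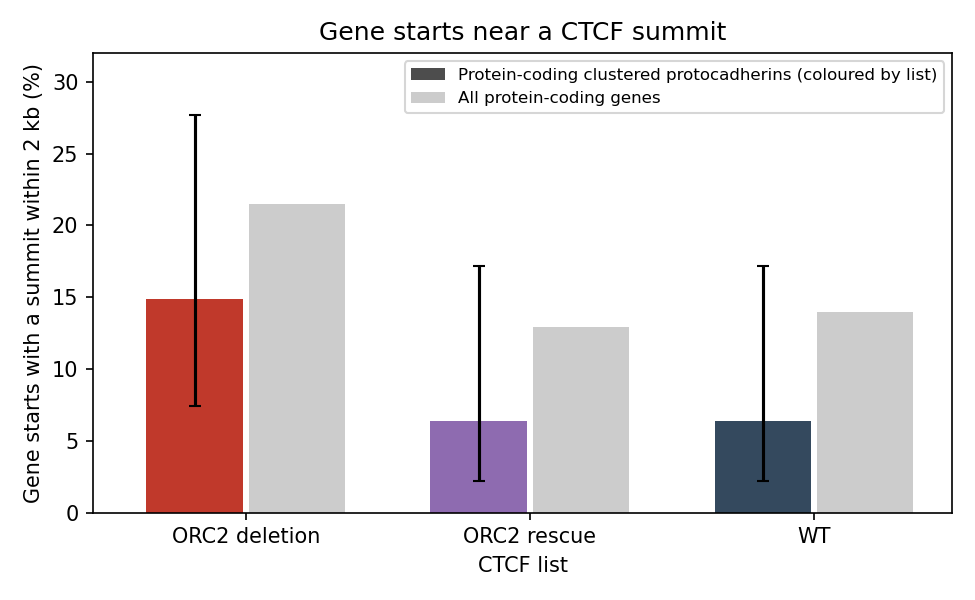
Share of gene starts with a CTCF summit within 2 kb for ORC2 deletion, ORC2 rescue and WT, with the 47 protein-coding clustered protocadherins that have an annotated strand in colour (bars of error are 95% Wilson intervals) left of all 15813 such genes in grey. The coloured bars reach 14.9%, 6.38% and 6.38%, and the grey bars, at 21.5%, 12.9% and 14.0%, end within the error bars beside them.

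All 13 summits near gene starts lay between 258 bp before and 267 bp after the start. Set against the box, 10 lay before it and 3 after it, from 218 bp before to 332 bp after. The promoters of the alpha, beta and gamma genes with a summit in 2 or more lists and before the start are given here in full up to that start, with the box in capitals and, for PCDHB9, the CTCF core joined to it.
PCDHA10, chr5:140855647-140855896: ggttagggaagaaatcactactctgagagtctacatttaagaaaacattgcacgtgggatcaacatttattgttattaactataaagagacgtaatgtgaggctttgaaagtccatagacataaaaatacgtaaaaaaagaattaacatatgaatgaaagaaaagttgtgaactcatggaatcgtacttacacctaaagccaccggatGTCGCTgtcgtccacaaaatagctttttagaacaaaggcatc
PCDHB9, chr5:141186911-141187160: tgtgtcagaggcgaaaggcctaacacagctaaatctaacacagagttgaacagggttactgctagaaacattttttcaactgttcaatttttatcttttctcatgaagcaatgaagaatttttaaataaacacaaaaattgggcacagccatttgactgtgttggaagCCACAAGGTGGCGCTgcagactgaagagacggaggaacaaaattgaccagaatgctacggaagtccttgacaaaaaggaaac
PCDHGA10, chr5:141412737-141412986: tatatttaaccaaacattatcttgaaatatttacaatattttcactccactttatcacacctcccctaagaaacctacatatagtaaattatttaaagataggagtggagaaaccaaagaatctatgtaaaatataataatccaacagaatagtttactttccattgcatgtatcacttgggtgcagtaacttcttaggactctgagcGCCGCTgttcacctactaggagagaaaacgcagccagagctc

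In the PCDHA10 promoter the rescue summit is base 117 of the 250 shown and the WT summit base 21. In the PCDHB9 promoter the deletion summit is base 22 and the rescue summit base 40. In the PCDHGA10 promoter the rescue summit is base 109 and the WT summit base 8, and the deletion summit lies past the end of the sequence.

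The authors' deposited table of up regions has 9603 entries, 6 of them in the window. They are the regions of PCDHB13 (chr5:141213610-141213836), PCDHGB2 (chr5:141359677-141359888), PCDHGA6 (chr5:141373642-141373891) and PCDHGA9 (chr5:141402459-141402858), 1 upstream of alpha and 1 in ARAP3, a GTPase-activating protein. They hold the 6 sites found in the deletion list alone. Over the full deletion list, 9603 summits lay in the 9603 up regions. The up list comes from these same data, so its overlap with the 6 sites is no separate support for them. Of the 21 deletion summits 6 were in up regions (28.6%, 13.8 to 50.0), against 30.9% of the full deletion list. The down list had 1 of the 14 WT summits, that of PCDHA10 (7.14%, 1.27 to 31.5), against 1.92% of the full WT list. PCDHB9, absent from WT and present in deletion, was in neither list, and neither was PCDHAC1.

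Between beta and gamma, the 1 site lay inside TAF7, a subunit of the general transcription factor TFIID. It was at 141320177 in ORC2 deletion (−log10 q 8.39), 141320159 in rescue (5.16) and 141320374 in WT (7.59). These values lay above 52.0%, 35.7% and 62.3% of their lists.

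Downstream of gamma, 187 kb held 10 of the 23 sites, and 9 of these were in all 3 lists. The run began inside DIAPH1, a formin that builds actin filaments, where 5 sites stood. The one nearest to gamma was at 141525037 in ORC2 deletion (23.4), 141525030 in rescue (18.5) and 141525025 in WT (11.0), within 12 bp of each other and 12501 bp above the last gamma site. Its rescue value was the highest of the rescue list in the window. The highest deletion value was at the next site, at 141558136 in deletion (28.2), 141558164 in rescue (9.05) and 141558186 in WT (7.80).

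Then came sites at 141564575 in deletion (20.3), 141564521 in rescue (10.6) and 141564489 in WT (7.30), and at 141567815 in deletion (26.5), 141567760 in rescue (11.7) and 141567823 in WT (9.88). The last site inside DIAPH1 was at 141592266 in deletion (10.4), 141592054 in rescue (17.1) and 141592111 in WT (7.52). It ranked 13 among the deletion summits of the window, 2 among those of rescue and 8 among those of WT.

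The other shared sites lay between DIAPH1 and HDAC3, a histone deacetylase, inside FCHSD1 and ARAP3, and beyond ARAP3. The site 374 to 470 bp above the upper end of DIAPH1 had a −log10 q of 16.2 in ORC2 deletion, 10.4 in rescue and 6.79 in WT. The site in FCHSD1 had 8.35, 6.12 and 4.43, and that in ARAP3 had 15.1, 7.33 and 6.83, in the same order of lists. The site beyond ARAP3 had 17.5 in deletion (141692128), 16.3 in rescue (141692122) and 11.0 in WT (141692146). The deletion list alone had a second summit in ARAP3, at 141677571 (5.41).

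Of 12 non-clustered protocadherins, which are single genes outside these clusters, 5 had a summit within 2 kb of the gene in ORC2 deletion, 5 in rescue and 5 in WT. Over all 19974 protein-coding genes the shares were 50.5%, 39.1% and 38.1%. PCDH1, which lies beyond the window on the same arm, had 1 summit in each list, with a −log10 q of 33.7 in deletion, 20.9 in rescue and 18.8 in WT. PCDH12, an endothelial protocadherin next to it, had 2 in deletion, 1 in rescue and 1 in WT. PCDH9 had 2, 1 and 1, and PCDH19, a gene of X-linked epilepsy, had none in deletion or rescue and 1 in WT (8.07).

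The member genes are close copies, and how reads that fit several copies were placed is not given in the sources used here. A summit at one member rather than at a close copy is therefore uncertain.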

How the data were processed

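CTCF and IgG CUT&RUN libraries of ORC2 deletion, ORC2 rescue and WT HCT116 p53-/- cells were analysed as 11 libraries in 6 groups. Per the submitters' processing notes, the genome build was hg38, and the tools were MACS2, SAMtools 1.12, Bowtie2 2.2.9 and FastQC 0.11.5. How peaks were called, whether duplicates stayed and whether IgG served as control is not stated in the sources used here. Values of deposited summits were read as −log10 of q, since each CTCF list begins at 1.304 to 1.308, a q close to 0.05.

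Positions were made 1-based, and summits of different lists matched within 500 bp. RefSeq (GRCh38.p14) gave genes, without exons, and promoters. All matched members lie on the plus strand, so the lower coordinate was taken as every member's start. Motifs were searched as plain letters. Intervals are 95% Wilson intervals. With 1 list per genotype no test was made. Genes with a summit near the start, in chromosome order, were named. The members and lists were chosen with earlier results of these data known. The matching code was checked on simulated lists with known answers, which does not test how well summits of the real lists match. Python 3.11.15, NumPy 2.4.6, SciPy 1.17.1 and matplotlib 3.10.9 were used.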

Additional observations from a re-analysis of the deposited data

How the results depend on the processing

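Of 75 values under alternative settings, 55 stayed within 1.5 times the count or within the interval and 20 moved. With −log10 q of at least 10, 13 deletion, 6 rescue and 4 WT summits were left in the window, 13 sites, and a deletion to WT ratio of 3.25. Deletion summits without a WT summit were then 69.2%, rescue ones 66.7%, WT summits without a deletion summit 0% and without a rescue summit 50.0%. The full lists were also unequal at this minimum, with 12236 deletion, 5564 rescue and 4433 WT summits. Gene starts with a summit numbered 4 in deletion, 0 in rescue and 1 in WT. With at least 5, there was 1 such gene start in rescue and 1 in WT, and 0% of WT summits had no deletion summit. For these minimum values no shares over the full lists or over all genes are given here, so whether they set the locus apart was not tested. With equal list lengths, 13.3% of deletion summits had no WT summit, against 25.4% of the full list. A deletion summit then stood at 4 gene starts, 8.51% of the 47 coding members with a strand, against 11.4% of all such genes. From the start of PCDHA1 to the end of gamma there were 10 deletion, 5 rescue and 5 WT summits. These settings drop weak or outer summits by construction, and the unknown depth limits every absence from a list. The rescue share without WT summits and the GNCGCT letters were added after seeing the data. No paired analysis was possible because the CTCF lists carry no replicate numbers, and for that reason no replicate could be left out.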

Other observations

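Of 12 genes known to regulate the protocadherin clusters, 7 had a summit within 2 kb of the gene in ORC2 deletion, 6 in rescue and 7 in WT, and CTCF itself, SMC1A, WAPL, SMCHD1 and SETDB1 had none in any list. Over all 19974 protein-coding genes the shares were 50.5%, 39.1% and 38.1%, in the same order, and with 12 genes the counts do not set the regulators apart. SMC3, a cohesin subunit, had 1 in each list, with a −log10 q of 12.9 in deletion, 12.7 in rescue and 14.4 in WT. DNMT3B, a DNA methyltransferase, had 3 in deletion, 3 in rescue and 2 in WT. NIPBL, which loads cohesin, had 2 in each list. STAG1, a cohesin subunit, had 3 in deletion, 2 in rescue and 2 in WT. The authors' deposited table of up regions has 1 region each at STAG1, STAG2 and NIPBL. The table of down regions has none at these genes. There were 9603 up regions in all, against 364 down regions. No share of all protein-coding genes with an up or down region is given here, so whether these genes stand apart was not tested.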
